A study of Homo sapiens with 12 samples.

Results

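Expression of the genes for proteasome subunits was examined in U937, an established cell line from a human histiocytic lymphoma that resembles early monocytes, with and without the phorbol ester PMA and with and without doxycycline. The genes were taken as those whose array probe sets (groups of short probes read together as 1 signal) carried a single gene symbol starting with PSMA, PSMB, PSMC, PSMD or PSME. PSMB8, PSMB9 and pseudogenes were left out. This gave 42 genes among the 19775 measured, and the probe set of highest mean over the 12 arrays stood for each. Of the 42, 35 encode proteins of the proteasome, its activators or its assembly, and these 35 are the proteasome genes described here. The other 7 (PSMA3-AS1, PSMB8-AS1, PSMC3IP, PSMD14-DT, PSMD6-AS2, PSMD7-DT and PSME3IP1) match by letters alone and were kept apart. PSMA6, PSMB11, PSMC5, PSMD7, PSMD13 and PSME2 were not analysed here.

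The proteasome is the large protease that degrades proteins tagged with ubiquitin in the cytosol and nucleus. Its barrel-shaped core has outer rings of alpha subunits (PSMA genes), which gate the entrance, and inner rings of beta subunits (PSMB genes), of which PSMB5, PSMB6 and PSMB7 carry the active sites. A cap, with a base whose ATPases (PSMC genes) unfold the substrate and a lid that removes the ubiquitin chain, sits on the ends of the core, and the PSME genes encode other caps that act without ubiquitin. PSMD genes encode the lid, the other subunits of the base and chaperones for its assembly. In cells of the immune system the active subunits can be exchanged for the inducible PSMB8, PSMB9 and PSMB10. Subunits are made in matched amounts, and the transcription factor NFE2L1 raises their genes together when proteasome activity falls short.

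All cells carried a TRIPZ-shRNAmir Tet-On cassette, 1 hairpin clone against ZXDC1/2 kept under puromycin, so that doxycycline switches on the hairpin, which targets the zinc finger gene ZXDC. The question of the study was which genes ZXDC1 controls while PMA drives the cells toward a monocyte or macrophage state. Each of 4 groups had 3 arrays: cells in vehicle (0.1% DMSO), in vehicle plus doxycycline, in 100 nM PMA, and in PMA plus doxycycline. Doxycycline was given at 0.5 µg/mL daily for 4 days, PMA or vehicle followed the first 2 of these days, and 3 days of differentiation were allowed, durations as the labels state them. No group with a hairpin against another sequence was used here, so doxycycline and the hairpin cannot be told apart. The labels call the 3 arrays of a group biological replicates 1 to 3 and say no more of how they were raised, so the p-values measure the spread between these samples.

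Signals are given on the log2 scale, and an array's median signal lay between 5.16 and 5.22. Doxycycline lowered ZXDC in 6 of 6 pairs of arrays with the same agent and number, by 0.50 on average, which left 70.9% of its signal (exact permutation p = 0.005, two-sided, the smallest that 400 relabelings can give). Without the arrays numbered 1 this difference was -0.39 (exact permutation p = 0.0556). The limma test over all genes that is used below did not call ZXDC in either agent. Its limma adjusted p was 0.613 in PMA and 0.420 averaged over both agents. These values come from the brightest of 6 ZXDC probe sets. Of 7 myeloid marker genes 6 were measured, 5 of them above the array median, while MPO lay under it. Their mean was 7.66 to 7.78 on the vehicle arrays and 8.04 to 8.47 on the PMA arrays. Without doxycycline only ITGB2 and CSF1R passed the test used below, with rises of 1.95 and 1.99 in PMA. SPI1 differed by 0.30, and LYZ, CD4 and MPO by -0.55, -0.13 and -0.03. Of 11 measured markers of other cell types, 4 (NKG7, COL1A1, HBB and CD3E) lay above the array median, and the platelet gene PPBP rose by 4.13 with PMA. The list of other cell types averaged 5.0 to 5.16 on vehicle arrays and 5.05 to 5.67 on PMA arrays, and their part in the results was not tested. In bulk RNA, fewer cells of a kind and less RNA per cell cannot be told apart.

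The first comparison was PMA against vehicle without doxycycline. It called 4 of 35 proteasome genes, 11.4%, against 31.7% of all genes. Among the 9888 brighter genes left by a filter on dim ones, 7 of 34 (20.6%) were called, 5 of them lower and PSMA1 and PSMD5 higher, against 56.6%. The 4 called over all genes fell: the alpha ring gene PSMA4, the beta ring gene PSMB3, the base scaffold gene PSMD1 and the activator gene PSME3. A gene was called at a limma p under 0.05 after Benjamini-Hochberg adjustment over all 19775 genes, of which 12.7% were called higher and 18.9% lower. The differences of the 35 ran from -0.85 to 0.33 with a median of -0.12, against a median of 0.01 over all genes. No proteasome gene differed by 1 or more, while 10.9% of all genes did. For 33 of 35 (94.3%) the whole 95% interval lay within 1 of no change, against 80.2% of all genes, and for 19 of 35 (54.3%) it lay within 0.5, against 47.9%. On the deposited scale 27 of 35 (77.1%) were below 0 against 48.2% of all genes, and with cyclic loess 19 (54.3%) were, against 48.2%. PMA arrays lay wholly below vehicle arrays for 10 of 35 and wholly above for 2, in all 34.3% against 41.8% of all genes, of which 23% lay wholly below. The split of calls moved with the scaling between arrays. Cyclic loess called 3 proteasome genes higher (PSMA1, PSMD4 and PSMD5) and only PSMA4 lower, with a median of -0.03, and raised the share of higher calls among all called genes from 40.2% to 48.2%. Leaving out vehicle replicate 2 or 3 kept only PSMA4, leaving out PMA replicate 1 gave 2 genes lower and PSMA1, PSMD4 and PSMD5 higher, and leaving out PMA replicate 3 gave 7 lower. Over all genes, the fits without 1 array called 5268 to 6534, against 6260 with all arrays.

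With doxycycline present, PMA called 12 of 35 proteasome genes, 34.3%, against 32.5% of all genes. Among the 9888 brighter genes left by a filter on dim ones, 13 of 34 (38.2%) were called against 57.9%. All 12 called over all genes fell, while 13% of all genes were called higher and 19.5% lower. They were PSMA2, PSMA3, PSMA4, PSMA8, PSMB3, PSMB10, PSMC2, PSMC3, PSMD1, PSMD14, PSME1 and PSME3. The 4 genes called without doxycycline were all among them, which is 100% of the shorter list and 33.3% of the longer. The median was -0.22, against -0.01 over all genes, and the range ran from -1.15 to 0.24, with 29 of 35 (82.9%) below 0 against 51.8% (with cyclic loess 23, or 65.7%, against 48.6%). PMA arrays lay wholly below vehicle arrays for 17 of 35 (48.6%) and wholly above for 0, against 42.5% of all genes without overlap and 24.4% wholly below. The whole interval lay within 1 of no change for 32 of 35 (91.4%), against 79.3% of all genes. With cyclic loess 6 of the 35 were called lower (PSMA3, PSMA4, PSMA8, PSMB3, PSMD1 and PSME3) and PSMD5 higher, with a median of -0.08, and the share of higher calls over all genes moved from 40% to 48.7%. Without vehicle with doxycycline replicate 2 or 3, or without PMA with doxycycline replicate 1, 7, 6 and 7 were called lower. Over all genes, the fits without 1 array called 5500 to 6671, against 6426 with all arrays. The plot of PMA differences by subunit shows both comparisons for each gene. They rest on different arrays, and whether the PMA difference itself depends on doxycycline is tested further on.

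**Figure D1:**
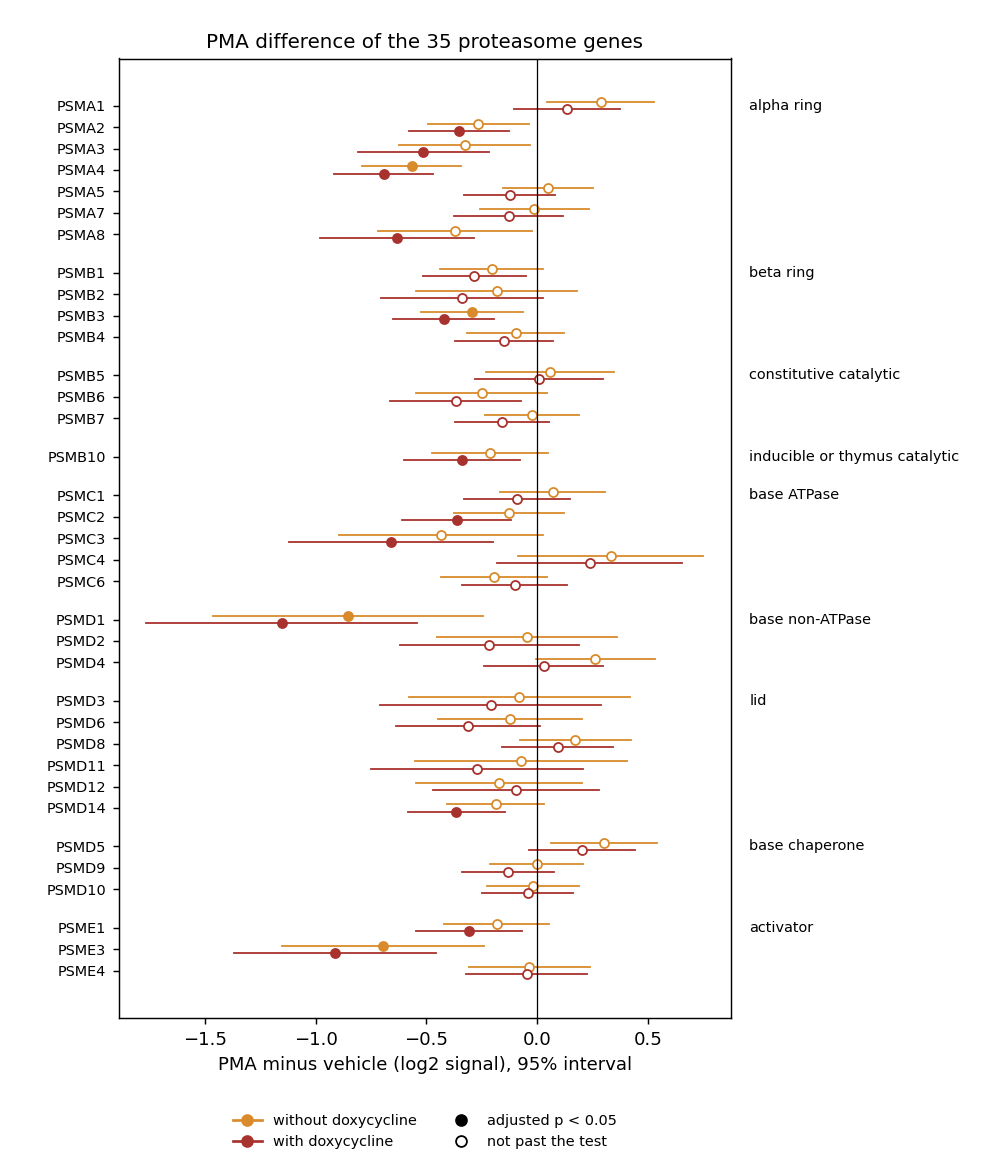
PMA minus vehicle in log2 signal for the 35 proteasome genes, grouped by role, without doxycycline (orange) and with it (red); points are differences of group means, lines 95% intervals, and filled points passed the adjusted test. Every filled point, 4 orange and 12 red, lies below 0, and PSMD1, PSME3 and PSMA4 lie farthest to the left among the orange points.

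PSMA4, an alpha ring subunit, gave the clearest difference. Without doxycycline its signal was 12.82, 12.91 and 12.75 on the vehicle arrays and 12.36, 12.10 and 12.33 on the PMA arrays. With doxycycline it was 12.70, 12.72 and 12.81 in vehicle and 11.98, 12.08 and 12.09 in PMA. Each PMA array lay below each vehicle array, and the groups did not overlap. The fall was 0.57 (SE 0.10, limma adjusted p = 0.000658) without doxycycline, a 0.676-fold level, and 0.69 (SE 0.10, adjusted p = 0.000108) with it. Of the 35 genes PSMA4 alone was called lower in both comparisons under each of the 20 alternatives run.

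PSMD1 encodes the large scaffold subunit of the base, to which ubiquitin receptors bind. It read 9.38, 10.03 and 9.81 on the vehicle arrays and 8.22, 9.21 and 9.23 on the PMA arrays. The arrays with doxycycline gave 9.42, 9.99 and 9.94 in vehicle and 8.11, 8.88 and 8.90 in PMA. Groups did not overlap, but the array numbered 1 was the lowest of each group, by most in PMA. PSMD1 fell by 0.85 (SE 0.28, limma adjusted p = 0.0329) and by 1.15 (SE 0.28, adjusted p = 0.0055), the largest fall of the 35 in each comparison. Without PMA replicate 1 the first of these differences was -0.52 with an adjusted p of 0.140, and it also missed the test without vehicle replicate 2 or 3 (adjusted p 0.132 and 0.0920), with cyclic loess (0.0708) and by the mean of its probe sets (0.0567). Its second probe set gave -0.91 and -1.25.

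PSME3 encodes the nuclear activator PA28 gamma. Its signal was 8.13, 8.92 and 8.74 on vehicle arrays and 7.65, 7.98 and 8.07 on PMA arrays. With doxycycline the values were 8.17, 8.69 and 8.89 in vehicle and 7.55, 7.79 and 7.67 in PMA. The PMA arrays lay below the vehicle arrays in both comparisons, and the vehicle arrays numbered 1 came nearest to them. PSME3 fell by 0.70 (SE 0.21, limma adjusted p = 0.0207) and by 0.91 (SE 0.21, adjusted p = 0.00361). All of its 4 probe sets were lower without doxycycline, by -0.70 to -0.48. The call without doxycycline was lost with cyclic loess (adjusted p = 0.0566) and without PMA replicate 1 or vehicle replicate 2 or 3 (0.0771, 0.107 and 0.0806).

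PSMB3, a beta ring subunit without an active site, moved least among the 4. The vehicle arrays read 11.90, 11.95 and 11.88 and the PMA arrays 11.44, 11.69 and 11.71. With doxycycline they read 11.93, 12.04 and 11.86 in vehicle and 11.48, 11.47 and 11.61 in PMA. The groups did not overlap, and the PMA array numbered 1 was the lowest of those without doxycycline. PSMB3 fell by 0.29 (SE 0.11, limma adjusted p = 0.0483) and by 0.42 (SE 0.11, adjusted p = 0.00637). The first of these calls stood just inside the threshold and was lost in 16 of 20 alternatives, with an adjusted p between 0.0263 and 0.209, whereas the second was kept in all of them.

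**Figure D2:**
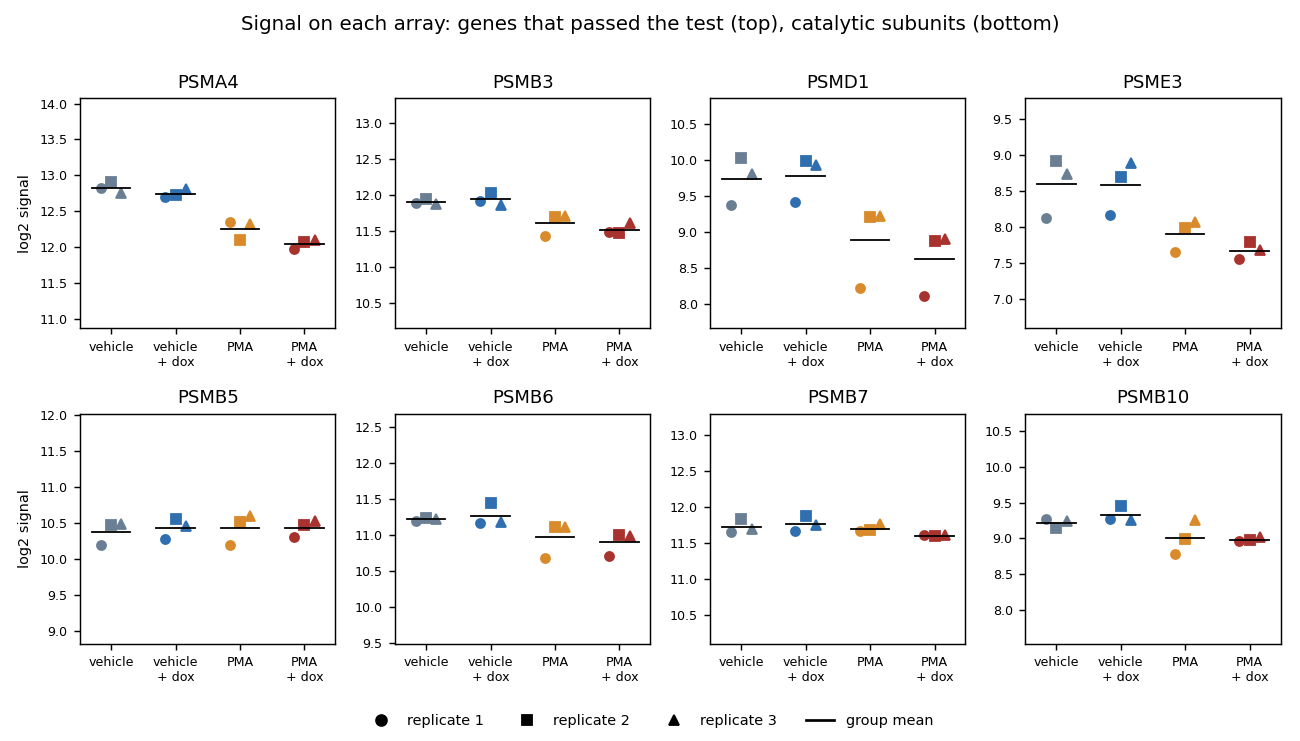
Log2 signal on each of the 12 arrays for PSMA4, PSMB3, PSMD1 and PSME3 (top) and for the catalytic subunit genes PSMB5, PSMB6, PSMB7 and PSMB10 (bottom); symbols mark the replicate number and bars the mean of 3 arrays, and each panel spans the same range of log2 signal. In the top row each PMA array lies below each vehicle array of the same doxycycline condition, while PSMB5 overlaps in all groups.

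The stretches before the start sites of these 4 genes are shown because they were the ones called without doxycycline. Each is the 250 bases before the annotated start, from RefSeq on GRCh38.p14, plus strand, read 5′ to 3′: PSMA4 at chr15:78540155-78540404, PSMB3 at chr17:38752491-38752740, PSMD1 at chr2:231056617-231056866, where a long noncoding RNA model also lies, and PSME3 at chr17:42833147-42833396. A pair of motifs was searched on both strands. TGACNNNGC is the core of the antioxidant response element, which NFE2L1 and NFE2L2 bind with small MAF proteins, and CCAAT is the box bound by the factor NF-Y. Capitals mark matches, which in the PSME3 stretch lie on the minus strand.
PSMA4: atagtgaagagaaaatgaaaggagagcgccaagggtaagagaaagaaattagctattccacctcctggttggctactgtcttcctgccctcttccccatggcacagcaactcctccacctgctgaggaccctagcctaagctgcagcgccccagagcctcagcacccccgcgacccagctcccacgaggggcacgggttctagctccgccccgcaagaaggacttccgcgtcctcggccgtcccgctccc
PSMB3: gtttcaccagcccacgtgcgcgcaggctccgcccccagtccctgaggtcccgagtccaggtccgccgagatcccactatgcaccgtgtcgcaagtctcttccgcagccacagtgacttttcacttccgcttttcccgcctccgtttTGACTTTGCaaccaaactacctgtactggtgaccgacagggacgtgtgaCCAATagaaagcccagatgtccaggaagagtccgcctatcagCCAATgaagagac
PSMD1: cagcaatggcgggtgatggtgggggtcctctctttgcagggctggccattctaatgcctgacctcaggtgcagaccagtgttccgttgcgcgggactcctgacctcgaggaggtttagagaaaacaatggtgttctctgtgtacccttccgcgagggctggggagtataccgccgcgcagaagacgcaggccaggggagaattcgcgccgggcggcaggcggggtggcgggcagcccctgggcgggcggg
PSME3: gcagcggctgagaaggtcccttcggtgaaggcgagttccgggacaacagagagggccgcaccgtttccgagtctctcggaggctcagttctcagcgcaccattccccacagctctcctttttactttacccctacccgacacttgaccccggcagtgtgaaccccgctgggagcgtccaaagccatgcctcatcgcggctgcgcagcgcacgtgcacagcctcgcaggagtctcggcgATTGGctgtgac

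In the PSMB3 stretch the match to TGACNNNGC began 104 bases before the start and the CCAAT matches 55 and 13 bases before it, and none overlapped another. In PSME3 the CCAAT match lay 12 bases before the start. PSMA4 and PSMD1 held neither set of letters in this window. Of the 35 genes 30 had a RefSeq stretch in the table used. TGACNNNGC was found in 7 of these 30 (23.3%), namely PSMB3, PSMD3, PSMD12, PSMD5, PSMD9, PSME1 and PSME4, against 11% of 27305 promoter stretches of the same length. CCAAT was found in 13 of 30 (43.3%), against 33%. These are matches of letters, given as a description.

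Among the 7 measured alpha ring genes, PMA called 1 (14.3%) lower without doxycycline and 4 (57.1%) with it, against 18.9% and 19.5% of all genes called lower. Besides PSMA4, PSMA2 differed by -0.27 (95% interval -0.49 to -0.04) and then fell by 0.35 (SE 0.11, limma adjusted p = 0.0185), and PSMA3 differed by -0.33 (-0.62 to -0.03) and then fell by 0.51 (SE 0.14, adjusted p = 0.00924). PSMA2 read 12.62 to 12.76 on vehicle arrays and 12.35 to 12.58 on PMA arrays without doxycycline, so these did not overlap either. Its second, dimmer probe set gave a larger difference, -0.81 and -1.06. The other probe sets of PSMA3 lay below the array median. They read -0.27 and 0.04 without doxycycline and -0.06 and 0.65 with it. The value of 0.65 passed the test over all single-gene probe sets (limma adjusted p = 0.0285). PSMA8, the testis form of the subunit PSMA7, was at a mean of 3.73 in vehicle, below the array median, so its fall of 0.63 (SE 0.16, adjusted p = 0.00696) with doxycycline is one between dim signals. PSMA5 and PSMA7 differed by 0.05 and -0.01 and, with doxycycline, by -0.13 each. PSMA1 stood on the other side, at 0.29 (0.05 to 0.53, adjusted p = 0.0686). Its arrays read 12.28, 12.47 and 12.47 in vehicle and 12.57, 12.70 and 12.80 in PMA, without overlap, and its other 2 probe sets gave 0.30 and 0.36.

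The active sites of the core lie in 3 constitutive subunits, and none of their genes was called in either comparison. PSMB5, the chymotrypsin-like subunit, read 10.19, 10.47 and 10.49 on vehicle arrays and 10.20, 10.51 and 10.60 on PMA arrays, with 10.27, 10.56 and 10.46 and then 10.31, 10.47 and 10.53 in the presence of doxycycline. These groups overlapped almost entirely, and the array numbered 1 was the lowest of each. The differences were 0.06 (95% interval -0.23 to 0.34) and 0.01 (-0.28 to 0.29).

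PSMB7, the trypsin-like subunit, read 11.65, 11.83 and 11.70 in vehicle and 11.66, 11.68 and 11.76 in PMA. With doxycycline it read 11.67, 11.87 and 11.75 and then 11.61, 11.59 and 11.62. It overlapped without doxycycline (-0.02, interval -0.23 to 0.19) and was lower on all 3 PMA arrays with it, by a difference of -0.16 (-0.37 to 0.05) that missed the test. A second, dimmer PSMB7 probe set pointed the other way, at 0.66 and 0.52, both past the test over all probe sets. The mean of both probe sets would give 0.32 without doxycycline (adjusted p = 0.0287).

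PSMB6, the caspase-like subunit, read 11.20, 11.24 and 11.23 in vehicle against 10.69, 11.11 and 11.11 in PMA. With doxycycline the vehicle arrays gave 11.16, 11.45 and 11.19 and the PMA arrays 10.71, 11.01 and 10.99. All PMA arrays lay below the vehicle arrays, but the array numbered 1 lay far under the other two with PMA. The differences of -0.25 (-0.54 to 0.04) and -0.37 (-0.66 to -0.07, limma adjusted p = 0.0539) missed the test.

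PSMB10, the one inducible active subunit within the rule, read 9.27, 9.14 and 9.25 on the vehicle arrays and 8.78, 8.99 and 9.25 on the PMA arrays. With doxycycline it read 9.27, 9.46 and 9.25 and then 8.96, 8.97 and 9.02, so that only the groups with doxycycline were apart. It differed by -0.21 (95% interval -0.47 to 0.05) and, with doxycycline, fell by 0.34 (SE 0.12, limma adjusted p = 0.0452), a call that 14 alternatives lost. Outside the rule, PSMB8 fell by 0.59 (SE 0.12, adjusted p = 0.00143), with -0.73 beside doxycycline, and PSMB9 differed by -0.38 (-0.78 to 0.02) and -0.36 (-0.76 to 0.03). IRF1, an interferon-response factor that acts on inducible proteasome genes, rose by 0.53 (SE 0.13, adjusted p = 0.00462) and 0.49.

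The other beta ring genes, PSMB1, PSMB2 and PSMB4, differed by -0.21, -0.18 and -0.10 without doxycycline and by -0.28, -0.34 and -0.15 with it, and none was called. Of the 5 measured base ATPases, none was called without doxycycline and 2 (40%) lower with it, against 19.5% of all genes. PSMC3 differed by -0.43 (95% interval -0.89 to 0.03) and then fell by 0.66 (SE 0.21, limma adjusted p = 0.0286), and PSMC2 differed by -0.13 and then fell by 0.36 (SE 0.11, adjusted p = 0.0244). PSMC4 lay above 0 in both, at 0.33 (-0.09 to 0.75) and 0.24 (-0.18 to 0.65), and PSMC1 (0.07 and -0.09) and PSMC6 (-0.20 and -0.10) stayed near 0. Members of the same ATPase ring thus ran from -0.43 to 0.33. PSMD2, the other scaffold of the base, differed by -0.05 (-0.45 to 0.36) and -0.22, and the ubiquitin receptor PSMD4 by 0.26 (-0.01 to 0.53) and 0.03.

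Among the 6 measured lid genes the one call (16.7%, against 19.5% of all genes called lower) was PSMD14, the deubiquitinase that cuts the chain off the substrate. It differed by -0.19 (95% interval -0.41 to 0.03) and with doxycycline fell by 0.36 (SE 0.10, limma adjusted p = 0.012), and its PMA arrays lay below its vehicle arrays in both comparisons. The structural lid subunits PSMD3, PSMD6, PSMD8, PSMD11 and PSMD12 ran from -0.17 to 0.17 and from -0.31 to 0.09 by their brightest probe sets. Dimmer ones read -0.49 and -0.73 for PSMD11 and -0.46 and -0.63 for PSMD12. With doxycycline both passed the test over all single-gene probe sets (limma adjusted p = 0.00224 and 0.0244). A PSMD6 probe set below the array median read 0.28 and 0.30, not past it. The 3 chaperones that help the base assemble, PSMD5, PSMD9 and PSMD10, had no call. PSMD5 came nearest to a rise, at 0.30 (0.06 to 0.54, adjusted p = 0.055) and 0.20, with arrays of 9.02, 9.23 and 9.20 in vehicle and 9.33, 9.54 and 9.48 in PMA that did not overlap. PSMD9 and PSMD10 differed by 0.00 and -0.02.

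Of the activator genes, PSME1 and PSME4 are given here beside PSME3 above. PSME1, the alpha chain of the interferon-inducible PA28, read 11.43, 11.18 and 11.30 in vehicle and 10.97, 11.20 and 11.19 in PMA. With doxycycline it read 11.41, 11.40 and 11.34 against 10.95, 11.09 and 11.19. The first groups overlapped and the second did not, with differences of -0.18 (95% interval -0.42 to 0.05) and a fall of 0.31 (SE 0.11, limma adjusted p = 0.046) that 14 alternatives lost. PSME4, the PA200 cap of the nucleus, read 9.22, 9.69 and 9.44 in vehicle and 9.43, 9.37 and 9.44 in PMA. With doxycycline it gave 9.28, 9.54 and 9.52 against 9.51, 9.36 and 9.33. These overlapped, at -0.04 (-0.31 to 0.24) and -0.05 (-0.32 to 0.22). Of the 3 measured caps PSME3 alone was called in both comparisons.

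Several genes were read by more than 1 probe set, which could differ. The 35 genes had 67 probe sets, 60 of them above the array median, and 20 genes had more than 1. Of 17 genes with more than 1 probe set above the median, 12 had the same sign throughout in PMA against vehicle without doxycycline and 5 did not (PSMA5, PSMA7, PSMB2, PSMB7 and PSME4). Tested over all 41091 single-gene probe sets, 8 of the 32 other probe sets (25%) were called, against 26.8% of all 41091, 6 lower (PSMA2, PSMC2, PSMD9, PSMD11 and a pair of PSME3) and 2 higher (PSMA1 and PSMB7). PSMD11 read -0.49 and PSMD9 -0.44 from these dimmer probe sets, against -0.07 and 0.00 from the brightest ones. Of all 67 probe sets of the proteasome genes 11 (16.4%) were called. With doxycycline 11 of the 32 others (34.4%) and 21 of all 67 (31.3%) were called, against 27.8% of the 41091. Where a gene's probe sets disagree, which transcript each reads was not tested.

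The arrays numbered 1 stood apart for these genes. They were the lowest of their group for 28 of 35 genes in vehicle, 29 in vehicle with doxycycline, 30 in PMA and 27 in PMA with doxycycline, against 34.6%, 34.3%, 41.6% and 37.3% of all genes. On the same arrays the 3′ minus 5′ signal of ACTB, a measure of RNA quality that is higher where RNA is degraded, was 1.99 to 2.72, against 0.71 to 1.64 on the other 8 arrays. The same measure for GAPDH did not set these arrays apart. It was 0.17, 0.21, 0.18 and 0.25 on the arrays numbered 1, against 0.12 to 0.25 on the other 8. The median deviation of the 35 genes from their means over the 12 arrays lay between -0.04 and 0.19 on the vehicle arrays and between -0.23 and 0.06 on the PMA arrays, so these ranges overlapped. The part of RNA quality in the PMA differences was not tested. On the arrays numbered 2 and 3 alone, 6 genes were called lower without doxycycline (PSMA3, PSMA4, PSMA8, PSMC3, PSMD1 and PSME3) and 11 with it, with medians of -0.07 and -0.26. The share of all genes called on these arrays alone is not given here, so these counts cannot be set against it.

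**Figure D3:**
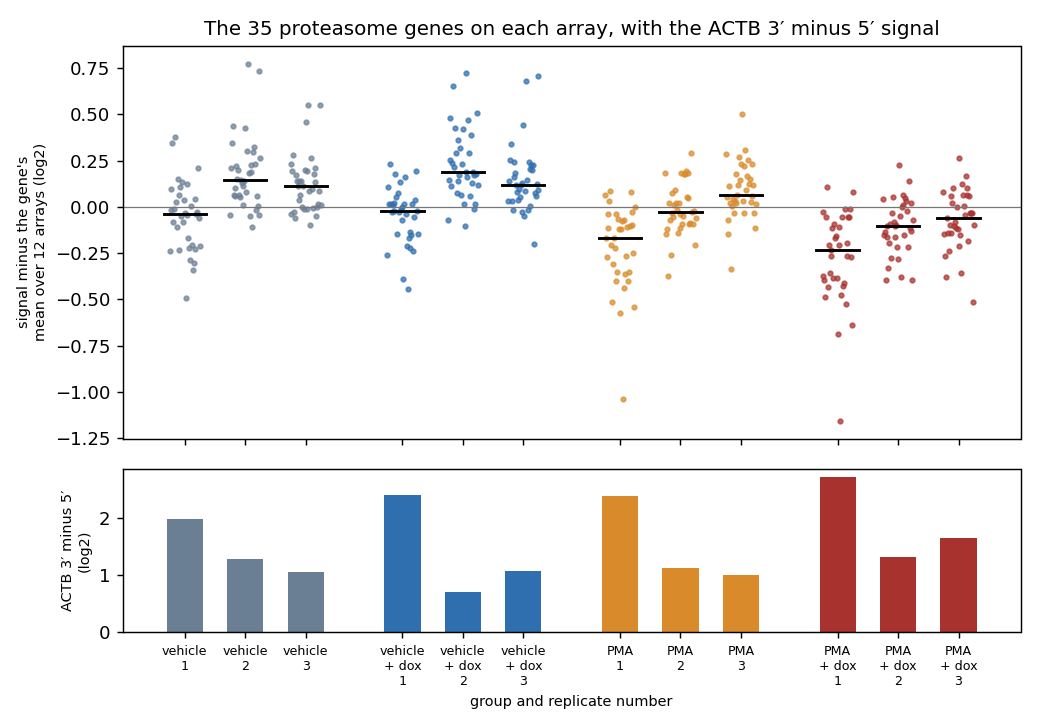
Top: signal of each of the 35 proteasome genes on each array minus the mean of that gene over the 12 arrays (log2), with a bar at the median of the 35. Bottom: 3′ minus 5′ signal of ACTB (log2) on the same arrays; the arrays numbered 1 have values of 1.99 to 2.72 and the lowest median of the proteasome genes in each group.

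Other genes of the pathway included larger differences. A list of such genes gave 30 that were analysed here. The 6 genes listed for assembly of the proteasome were all called in both comparisons, 5 lower and 1 higher. That is 100% of this list, against 31.7% and 32.5% of all genes and 56.6% and 57.9% of the 9888 brighter ones. PSMG1, part of a chaperone that builds the alpha ring, fell by 1.25 (SE 0.14, limma adjusted p = 6.57e-06), with -1.33 in the presence of doxycycline. The differences were -2.0 and -2.13 for PSMG4, -1.10 and -1.33 for PAAF1, -0.54 and -0.58 for PSMG2, and -0.54 and -0.60 for PSMG3. POMP, which matures the core, rose by 0.35 (SE 0.11, adjusted p = 0.0202) and 0.36, and 5 of 20 alternatives lost the first of these calls, among them leaving out vehicle replicate 1 and PMA replicate 3, with adjusted p over all 20 between 0.00461 and 0.286. PSMG4 and PAAF1 depend on the probe set: without probe sets of shared sequence PSMG4 gave -0.41 and -0.39 and PAAF1 0.11 and 0.24, none past the test.

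Of 8 genes for proteins bound to the proteasome 3 (37.5%) were called, all lower in both comparisons, against 31.7% and 32.5% of all genes called. TXNL1 was not called by its brightest probe set (-0.22 and -0.21). One other read 0.89 and 1.30, and another, below the array median, -1.22 and -0.66. Both passed the test over all single-gene probe sets in each comparison. PSMF1, an inhibitor of the core, fell by 0.74 (SE 0.16, limma adjusted p = 0.00185), with -0.61 beside doxycycline. The deubiquitinase UCHL5 gave -0.60 and -0.62, and SEM1, a small lid protein, -0.45 and -0.46. A second UCHL5 probe set read -0.72 and -0.64, the first past the test over all single-gene probe sets (limma adjusted p = 0.0331). A dimmer one read 0.01 and 0.16, and one below the array median -0.06 and -0.04. The control list went the other way in part. NFE2L1, the factor that raises proteasome genes, rose by 0.96 (SE 0.14, adjusted p = 8.86e-05) and 0.85, with vehicle arrays of 8.77, 8.70 and 8.82 and PMA arrays of 9.51, 9.92 and 9.75, and its 3 probe sets ran from 0.77 to 0.96. NFE2L2 rose by 0.80 and 0.89, and the gene of NGLY1, an enzyme that activates the NFE2L1 protein, fell, with -0.65 and -0.82, but read 0.10 and 0.12 from its other probe set.

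Of 10 measured genes for ubiquitin and its delivery, UBB (-0.60 and -0.78) and UBQLN4 (-0.67 and -0.78) fell in both comparisons, and UBQLN2 rose by 0.42 (SE 0.12, limma adjusted p = 0.017) with doxycycline. In all 16 of the 30 genes (53.3%) were called without doxycycline and 17 (56.7%) with it, against 31.7% and 32.5% of all genes. All 30 lay above the array median. Among the 9888 brighter genes left by the filter on dim ones, 56.6% and 57.9% were called, so the 30 show no excess over bright genes. UBQLN4 and UBQLN1 depend on the probe set. The second, dimmer one of UBQLN4 read 0.09 and 0.32, the latter past the test over all single-gene probe sets (limma adjusted p = 0.0334). UBQLN1, not called by its brightest probe set (0.20 and 0.25), read 0.65 and 0.63 from one other and 0.81 and 1.09 from another, past that test in both comparisons. The plot of the lists sets these genes beside the subunits.

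**Figure D4:**
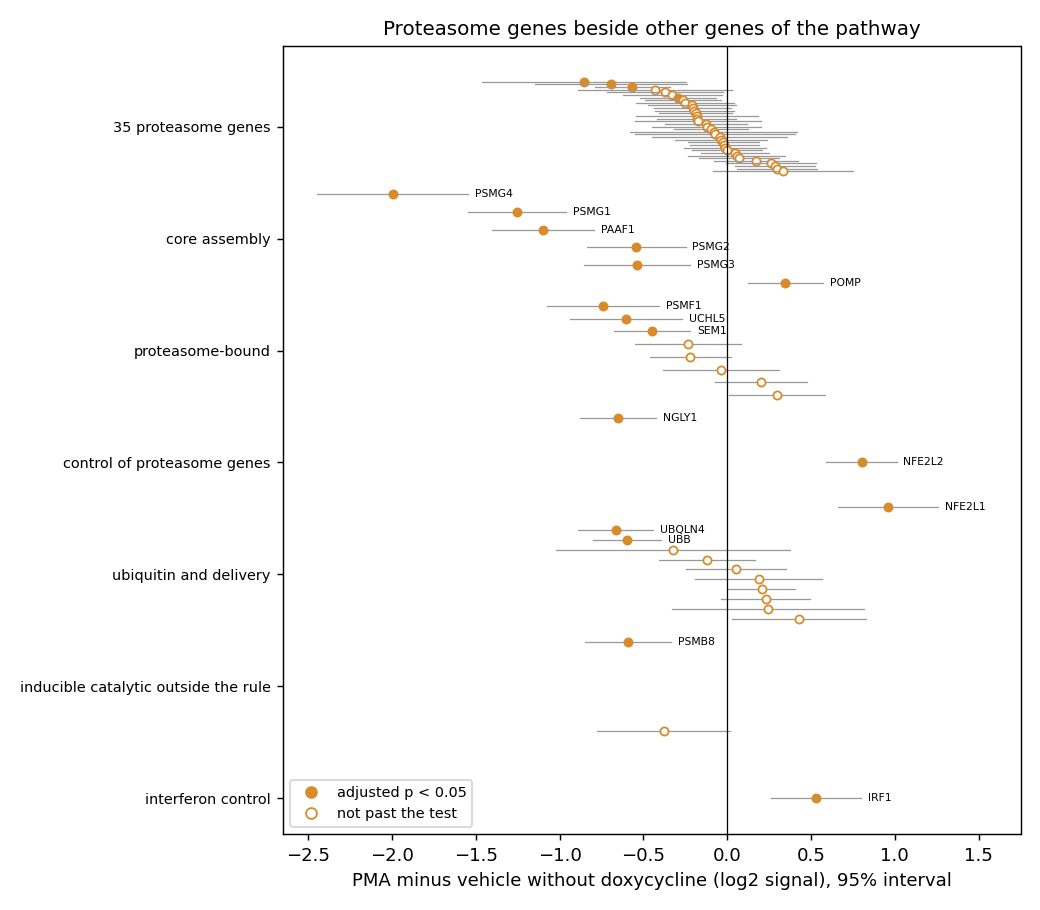
PMA minus vehicle without doxycycline (log2 signal) for the 35 proteasome genes and for 30 other genes of the pathway by list; lines are 95% intervals, filled points passed the adjusted test, and names mark called genes outside the 35. The subunits lie between -0.85 and 0.33, while assembly genes (all marked core assembly in the plot) reach -2.0 and NFE2L1 0.96.

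The next question was what doxycycline did to the proteasome genes. In vehicle it called 0 of 35, against 0% of all genes, and 0 had an unadjusted limma p under 0.05. The median difference was 0.03, and 12 of 35 (34.3%) were below 0 against 44.7% of all genes (with cyclic loess 7, or 20%, against 51.2%). Of the 35, 0 had groups that did not overlap, against 8.56% of all genes in either direction and 3.47% downward. For 35 of 35 genes the 95% interval lay within 1 of no change (99.3% of all genes). It lay within 0.5 for 31 (88.6%), against 78.1%. The widest interval, of PSMD1, ran from -0.57 to 0.65. The smallest p was that of PSMC6, a base ATPase, which read 10.89, 11.24 and 11.13 without doxycycline and 10.96, 10.84 and 11.03 with it. These overlapped, at -0.15 (-0.39 to 0.09, adjusted p = 1.00).

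In PMA doxycycline also called 0 of 35, against 0.00506% of all genes, and 0 had an unadjusted p under 0.05. Signs, however, leaned one way: 31 of 35 (88.6%) were below 0, against 51.6% of all genes, with a median of -0.10 against -0.01. With cyclic loess 28 (80%) were below 0, against 52.2%, with a median of -0.07. All 35 intervals lay within 1 of no change (98.4% over all genes) and 26 (74.3%) within 0.5, against 72.4% of all genes. The arrays with doxycycline lay wholly below those without for 6 genes (17.1%), PSMA4, PSMA5, PSMB7, PSMC2, PSMD9 and PSMD14, against 10.7% of all genes with no overlap in either direction and 5.9% with none downward. PSMC2, a base ATPase with the smallest p, read 11.83, 11.91 and 12.09 in PMA and 11.56, 11.73 and 11.82 in PMA with doxycycline. The highest array with doxycycline lay just under the lowest without, and the difference of -0.24 (-0.48 to 0.01, limma adjusted p = 0.815) missed the test. Its dimmer probe sets gave larger differences, -0.50 (SE 0.19) and -0.44 (SE 0.18). Neither passed the test over all single-gene probe sets (limma adjusted p = 0.780 and 0.796). In vehicle these gave -0.13 and -0.39.

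Arrays of the same number within an agent deviated together, so the doxycycline differences were also read by pair. In vehicle the median of the 35 was 0.01, 0.04 and 0.04 for the pairs numbered 1 to 3. There 15, 13 and 12 of the 35 were lower, against 48.1%, 43.9% and 50.7% of all genes. In PMA it was -0.06, -0.11 and -0.16, with 24, 30 and 33 genes lower, against 47%, 57.2% and 52.9% of all genes. The 3 pairs in PMA thus leaned down and those in vehicle did not. Over the PMA pairs the ACTB 3′ minus 5′ signal was higher with doxycycline by 0.33, 0.20 and 0.63, and over the vehicle pairs by 0.41, -0.58 and 0.02. The GAPDH values were 0.18, 0.15 and 0.18 in PMA and 0.25, 0.19 and 0.17 in PMA with doxycycline. In vehicle they were 0.17, 0.25 and 0.19, and in vehicle with doxycycline 0.21, 0.12 and 0.16. The part of RNA quality in the lean was not tested. A limma fit with the 6 pairs as blocks called 0 of 35 in either agent. At an unadjusted p under 0.05 it gave 0 in vehicle and 3 in PMA (PSMC2, PSMC3 and PSMD1), when 5.51% and 13.2% of all genes had one. Its smallest adjusted p in PMA among the 35 was 0.271, for PSMD1 at -0.26 (SE 0.09).

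**Figure D5:**
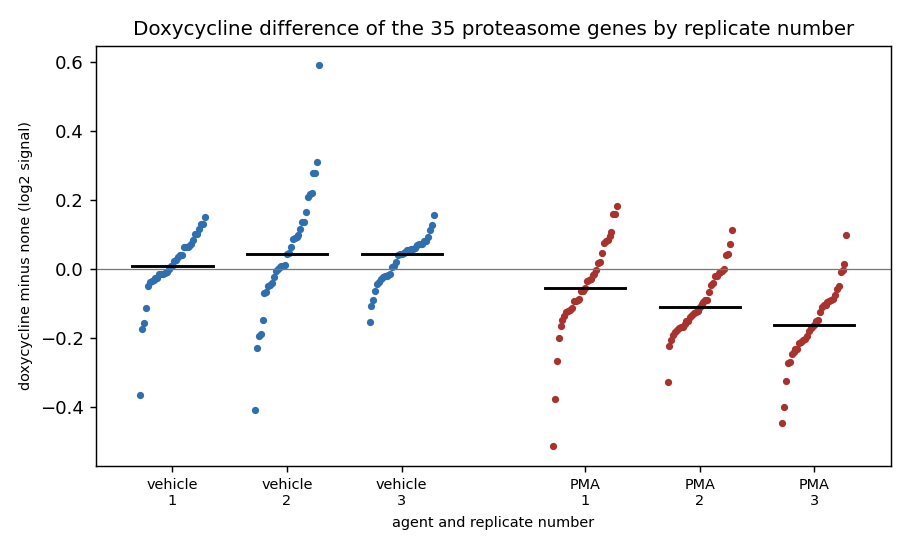
Doxycycline minus none (log2 signal) for each of the 35 proteasome genes in each pair of arrays of the same agent and replicate number, sorted within a pair; bars mark the median. The medians are 0.01 to 0.04 in the vehicle pairs and -0.16 to -0.06 in the PMA pairs.

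Averaged over both agents, doxycycline called 0 of 35 and 0% of all genes, with 0 of 35 at an unadjusted p under 0.05 and a median of -0.03. Of the 35, 28 were below 0 (80%, against 47.5% of all genes; with cyclic loess 18, or 51.4%, against 52.6%), 35 had intervals within 1 of no change (99.7% over all genes) and 34 within 0.5 (97.1% against 92.8%). PSMA4 had the smallest p, at -0.15 (95% interval -0.30 to 0.01, limma adjusted p = 0.834). The interaction, which tests whether the PMA difference itself depends on doxycycline, called 0 of 35 and 0% of all genes, again with 0 at an unadjusted p under 0.05. The counts of 4 and 12 genes called for PMA are therefore not shown to differ. The interaction was below 0 for 33 of 35 genes (94.3%) against 55.6% of all genes, with a median of -0.13 against -0.02. With cyclic loess it was below 0 for 32 (91.4%), against 51.1%. On the deposited scale 34 intervals lay within 1 of 0 (95.5% of all genes did). Within 0.5 of 0 lay 20 of 35 (57.1%), against 35.9% of all genes. PSMC2 again had the smallest p, at -0.24 (-0.58 to 0.11, adjusted p = 1.00). With the 6 pairs as blocks the interaction and the average called 0 of 35 as well, and PSMD1 alone had an unadjusted p under 0.05 for the interaction (0.0461). These signs share arrays with the comparisons above and are the same measurements seen another way.

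Among the 7 letter matches that encode no proteasome protein, PSMB8-AS1, an RNA antisense to PSMB8, fell by 1.87 (SE 0.16, limma adjusted p = 8.99e-07) with PMA, and PSMC3IP, a recombination protein gene named for binding PSMC3, fell by 0.41 (SE 0.14, adjusted p = 0.0341). With doxycycline PSMB8-AS1 fell by 2.17 and PSME3IP1, which binds the PSME3 protein, by 0.40, and PSMC3IP differed by -0.27. Counted in, they would make 6 genes lower without doxycycline and 14 with it.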

How the data were processed

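The files hold expression on 12 Affymetrix HG-U133 Plus 2.0 arrays. The deposited table gives log2 signals that the authors obtained with RMA, per the submitters' processing notes. The RMA version and its settings were not stated in the sources used here, and no scaling was added. RMA fits all arrays together and pulls dim signals toward each other, so differences of dim genes are understated. Of 54675 probe sets, 62 were controls, 41091 paired with 1 gene, 1801 with several and 11721 with none in the platform annotation, and 41037 symbols were updated through the Entrez number. No values were missing, and no arrays were identical.

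Per gene the probe set of highest mean over all arrays was kept, which left 19775 genes and no filter on dim genes. The 4 group means were fitted in R 4.3.3 with limma 3.58.1 (lmFit, eBayes; 8 residual and 5.60 prior degrees of freedom), two-sided, with Benjamini-Hochberg adjustment over all genes and calls under 0.05; 95% intervals use a t quantile of 2.15. ZXDC was tested by exact permutation within agents. The procedure was checked on simulated data. Precision is limited by having 3 arrays a group.

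Same-numbered arrays within an agent deviated together (correlations of 0.57, 0.25 and 0.31 in vehicle and 0.64, 0.29 and 0.32 in PMA), which with a limit of 0.1 takes them as paired; across agents some lay under it (0.16, -0.01 and 0.15 without doxycycline). Pairing thus comes from the data, not the labels.

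All 35 proteasome genes are accounted for. Arrays are given singly for called genes of the first comparison, the catalytic and activator genes and the smallest p of each doxycycline comparison, and for PSMA1, PSMD5 and NFE2L1, chosen after their values were seen. From each other list called genes are named, up to 3 in each direction, and further assembly genes. The members, lists and roles were chosen with earlier results of these data known; setting apart PSME3IP1 and the divergent transcripts was decided on seeing the annotation. Alternatives tried were cyclic loess, other choices of probe set, a filter on dim genes, left-out arrays, replicate blocks and the compared groups alone.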

Additional observations from a re-analysis of the deposited data

How the results depend on the processing

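PMA without doxycycline called 0 proteasome genes higher and 4 lower. Cyclic loess gave 3 higher and 1 lower, averaging each gene's probe sets 2 higher, leaving out dim genes 2 higher, and the replicate block over numbers 1 to 3 gave 3 higher and 7 lower. Leaving out 1 array gave 0 to 3 higher and 1 to 7 lower. With doxycycline the counts of 0 and 12 became 1 and 6 with cyclic loess, and 6 to 13 lower without 1 array. The replicate block gave 17 lower. Calls over all genes also moved: without 1 array they were 5268 to 6534 without doxycycline and 5500 to 6671 with it. The other alternatives gave 4738 to 12879 and 4905 to 13401. Testing every probe set called 12879 and 13401 in place of 6260 and 6426 genes, with more features tested. Without dim genes 56.6% and 57.9% of 9888 genes and 7 and 13 of 34 proteasome genes were called. For doxycycline every alternative called 0 of 35; over all genes in PMA the 6-pair replicate block called 53 in place of 1, and averaged over agents at most 3 were called. The ZXDC difference was -0.3925 on arrays numbered 2 and 3 (exact permutation p = 0.0556, the smallest possible) and -0.57 to -0.43 without 1 array. Among called values, signs turned with the mean of probe sets for PSMA3 with doxycycline (0.0263). Without probe sets of shared sequence they turned for PAAF1 (0.1079 and 0.2366), UCHL5 (0.0063 and 0.1647) and NGLY1 (0.0978 and 0.1237), where another probe set stands for the gene. PSMB7 without doxycycline, not called at -0.0231, was called higher with the mean of probe sets (0.3181). Uncalled differences also changed sign under 1 or more alternatives, for 14 proteasome genes without doxycycline and 11 with it and for 4 and 6 of the other pathway genes; PSMB1 went to 0.2438 and 0.373 without probe sets of shared sequence, and with the mean of probe sets PSMA5 went to -0.2019 without doxycycline and PSMB7 and TXNL1 to 0.1822 and 0.1468 with it. The cause of the other changes was not tested. PSMA8, below the array median, is the one subunit gene whose signal over background limits its value.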
